A study of Homo sapiens with 14 samples.

Results

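The 43 genes described here encode the route from glucose to lactate and the hypoxia-inducible factor (HIF) system that is known to regulate much of it: 2 HIF alpha subunits, 2 HIF prolyl hydroxylases, 2 glucose transporters, 15 glycolytic enzymes, 3 PFKFB enzymes, 4 lactate dehydrogenase and lactate transporter genes, 4 pyruvate dehydrogenase kinases and 11 further HIF target genes. They were chosen by name, and all 43 were found among the 26732 gene symbols listed for both cell lines. Their transcripts were counted in A549 and H1792, both established human lung adenocarcinoma lines, 48 h after treatment with 0.1 µM AMG900, which inhibits all aurora kinases, or with DMSO, its solvent. A549 was grown in DMEM and gave 4 DMSO and 4 AMG900 libraries, while H1792 was grown in RPMI 1640 and gave 3 and 3. No engineered allele is named for either line in the labels. The labels name dishes per treatment without saying whether replicates were grown separately, so p-values measure the spread between these libraries. The protocol in the labels gives 3 replicates per treatment, although 4 per treatment are listed for A549.

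Total counts ranged from 4254644 to 18962883 in A549 and from 42760874 to 79902934 in H1792, so counting error weighed more in A549. A549 DMSO replicate 1 was the shallowest library and stood apart, with a chi-square per gene of 13.8 to 16.6 against the other DMSO replicates, which differed from each other by 3.31 to 4.75. This statistic grows with depth, and in the deeper H1792 libraries DMSO replicate 1 was at 22.7 and 48.3 against the others, which differed by 14.8, and AMG900 replicates differed by 6.13 to 25. The 5 epithelial markers, most of them KRT8 and KRT18, summed to 4227 to 5331 CPM (counts scaled to a common library total) with DMSO and 6085 to 7063 with AMG900 in A549, and to 674 to 839.9 and 838 to 852 in H1792. In A549, KRT19 was at 19.7 to 33.2 CPM with DMSO and 70.6 to 88.5 with AMG900 and CDH1 at 14.9 to 27.2 and 39.1 to 45. The epithelial marker EPCAM was at or below 0.542 CPM in A549, and CDH1 was at or below 1.07 CPM in H1792. Among markers of other cell types, the leukocyte genes PTPRC and CD3E stayed at or below 0.0942 CPM, whereas CD68, a lysosomal protein gene used as a macrophage marker, was at 54.97 to 80.7 CPM with DMSO and 152 to 169.5 with AMG900 in A549 and at 99.8 to 115 and 171 to 196.5 in H1792. The 5 fibroblast markers summed to 83.0 to 114 CPM with DMSO and 39.6 to 50.3 with AMG900 in A549, and to 3536 to 4502 and 2636 to 2716 in H1792. Endothelial markers (3 genes) summed to 16.5 CPM at most. The part of these markers in the results below was not tested. In bulk RNA a change in the mix of cells and a change in RNA per cell cannot be told apart.

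Glycolysis converts glucose to pyruvate, and lactate dehydrogenase then reduces pyruvate to lactate, which monocarboxylate transporters carry across the membrane. HIF is a heterodimer whose alpha subunit is hydroxylated by prolyl hydroxylases when oxygen is present and then degraded, so its amount is controlled largely at the protein level. When it accumulates, it binds a short hypoxia response element near genes for glucose uptake, glycolysis, pH control, mitophagy and collagen modification. Lung adenocarcinomas, like many carcinomas, commonly take up glucose and release lactate even when oxygen is present.

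The core letters of the hypoxia response element, ACGTG and GCGTG, were searched on both strands of the 250 bases before each annotated start site. RefSeq promoters on GRCh38.p14 were matched for 37 of the 43 genes and gave 67 windows. BNIP3L, NDRG1, PFKFB2, SLC16A1, SLC2A3 and VEGFA had no entry in the table used. ACGTG was found in 37.3% of the windows of the 37 genes, against 18.5% of 35116 promoters in the whole table, and GCGTG in 34.3% against 32.2%. Windows with either core made up 58.2% and 43.2%. A match describes letters, not a bound site. The following windows are shown because LDHA, PGK1, PFKFB3 and ADM were called in the same direction in both lines under every alternative tried, while CA9 was called in opposite directions. Each is the most upstream window of its gene and lies on the plus strand: chr11:18394313-18394562 for LDHA, chrX:78103998-78104247 for PGK1, chr10:6144671-6144920 for PFKFB3, chr11:10304823-10305072 for ADM and chr9:35673678-35673927 for CA9. Capitals mark the cores, with those on the minus strand reading CACGT or CACGC.
LDHA: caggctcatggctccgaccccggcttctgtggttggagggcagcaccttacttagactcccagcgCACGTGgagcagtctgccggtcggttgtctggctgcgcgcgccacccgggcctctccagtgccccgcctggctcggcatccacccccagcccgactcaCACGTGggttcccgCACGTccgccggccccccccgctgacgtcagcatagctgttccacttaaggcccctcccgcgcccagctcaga
PGK1: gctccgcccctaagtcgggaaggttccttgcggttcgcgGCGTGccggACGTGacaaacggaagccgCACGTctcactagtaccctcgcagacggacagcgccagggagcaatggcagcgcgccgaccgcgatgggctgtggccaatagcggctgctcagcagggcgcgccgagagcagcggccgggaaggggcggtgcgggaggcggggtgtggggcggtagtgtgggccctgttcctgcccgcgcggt
PFKFB3: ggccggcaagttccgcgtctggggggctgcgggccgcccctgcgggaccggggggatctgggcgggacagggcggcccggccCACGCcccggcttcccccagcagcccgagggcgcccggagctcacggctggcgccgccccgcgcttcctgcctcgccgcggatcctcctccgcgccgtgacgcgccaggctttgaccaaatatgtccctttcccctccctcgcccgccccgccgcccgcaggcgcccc
ADM: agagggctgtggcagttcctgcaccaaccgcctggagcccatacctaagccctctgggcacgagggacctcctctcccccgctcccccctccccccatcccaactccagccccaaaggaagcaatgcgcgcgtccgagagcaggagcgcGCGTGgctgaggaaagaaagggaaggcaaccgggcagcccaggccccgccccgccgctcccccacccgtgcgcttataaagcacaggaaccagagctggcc
CA9: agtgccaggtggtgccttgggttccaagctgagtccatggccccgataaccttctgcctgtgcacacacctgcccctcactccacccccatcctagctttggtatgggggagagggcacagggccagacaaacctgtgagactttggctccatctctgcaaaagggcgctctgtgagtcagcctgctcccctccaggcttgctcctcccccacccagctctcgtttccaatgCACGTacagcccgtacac
The LDHA window held 5 ACGTG cores counted over both strands, of which the overlapping pairs at the palindrome CACGTG began at -185 and -184 and at -87 and -86 from the start site. PGK1 had 3 cores, at -211, -202 and -183. ADM had 1 GCGTG at -101 and CA9 had 1 ACGTG at -18. The most upstream PFKFB3 window had 1 GCGTG at -168, and the other PFKFB3 window, not shown, held an overlapping ACGTG pair at -108 and -107. Thus the members that fell and the members that rose both had cores in these windows.

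With AMG900, the LDHA, SLC16A1, PFKFB3 and PGK1 transcripts fell and ADM rose in both lines under every alternative tried. In A549, 10 of the 43 members were called up and 16 down at a false discovery rate (FDR) of 0.01 by the edgeR quasi-likelihood test, where 17.2% and 17.8% of all 13174 genes tested were called up and down. In H1792, 3 were called up and 21 down, where 16.2% and 18.8% of 15017 genes were. The median log2 fold change of the members was -0.15 in A549, beside -0.01 over all genes tested, and -0.24 in H1792, beside 0.01. All 43 members passed the low-count filter in both lines. Scaling by total counts in place of TMM gave 6 up and 20 down in A549, and a correction for GC content gave 4 and 16. Over all genes, 2265 were up and 2340 down in the main A549 test. These became 1870 and 2850 with total counts, and 1809 and 2413 of 12770 with the GC correction. Total counts ended the calls of ALDOC, PFKL, ENO2 and PDK2 in A549 (adjusted p between 0.0124 and 0.057) and of GAPDH and PDK2 in H1792 (0.0233 and 0.018). ENO1 in A549 was also lost with the size factors of DESeq2, without a filter on low counts and with at least 10 counts in every library (0.0139 to 0.028), and ENO2 without the filter (0.0122).

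**Figure D1:**
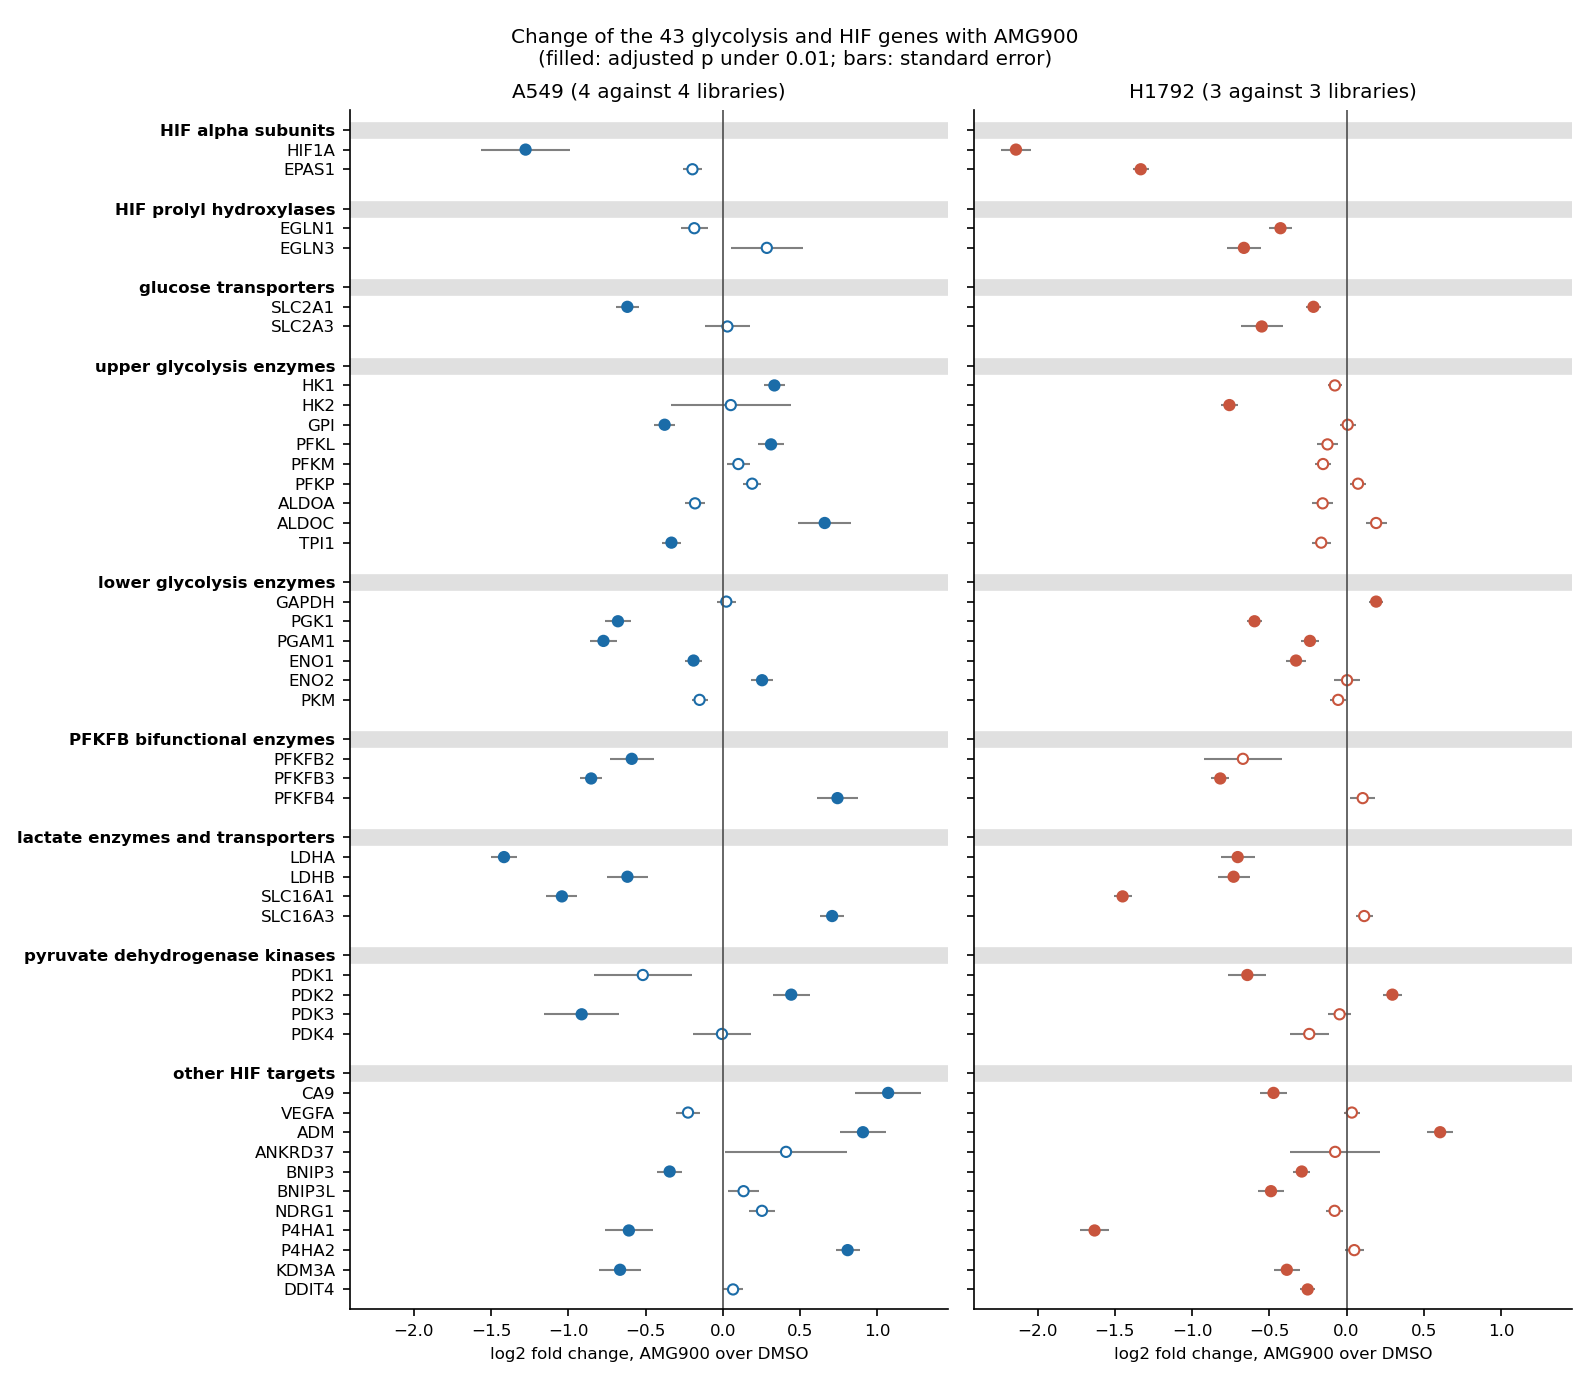
Log2 fold change of each of the 43 members with AMG900 over DMSO in A549 (left, 4 against 4 libraries) and H1792 (right, 3 against 3 libraries), grouped by role; points are edgeR estimates, bars are standard errors, and filled points passed an adjusted p of 0.01. LDHA, SLC16A1, PFKFB3 and PGK1 lie left of 0 and ADM right of 0 in both panels, while CA9 lies at 1.07 in A549 and at -0.47 in H1792.

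Set side by side, 12 members were called down in both lines: HIF1A, SLC2A1, PGK1, PGAM1, ENO1, PFKFB3, LDHA, LDHB, SLC16A1, BNIP3, P4HA1 and KDM3A. ADM and PDK2 were called up in both. CA9 alone was called in opposite directions. Of the 12625 genes tested in both lines, 9.31% were down in both, 7.29% up in both and 1.17% called in opposite directions. A further 8 members were called in neither line: ALDOA, PFKM, PFKP, PKM, PDK4, VEGFA, ANKRD37 and NDRG1, as were 44.9% of all genes. The 2 lines share no control library.

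The transcripts of both HIF alpha subunits were lower with AMG900 in H1792, and that of HIF1A was lower in A549 too. HIF1A (GRCh37, chr14:62162231-62214977), the oxygen-regulated subunit found in most cells, was at 96.1, 32.0, 34.1 and 33.1 CPM in A549 DMSO replicates 1 to 4 and at 16.7, 18.6, 21.5 and 19.8 with AMG900. Every AMG900 library lay below every DMSO library, but DMSO replicate 1 was far above its group. The fitted log2 fold change was -1.28 (SE 0.29, adjusted p = 0.00221). Without DMSO replicate 1 the log2 fold change was -0.78 (adjusted p = 1.07e-06), and without AMG900 replicate 1 the call was lost (log2 fold change -1.23, adjusted p = 0.0106). In H1792, HIF1A was at 37.6, 36.7 and 44.9 CPM with DMSO and at 8.48, 9.78 and 8.80 with AMG900. The groups were far apart, with AMG900 at 0.227 of the DMSO level (log2 -2.14, SE 0.10, adjusted p = 4.23e-07).

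EPAS1 (chr2:46520806-46613836), the paralogous alpha subunit with a more restricted expression, was at 173, 181 and 181 CPM in H1792 with DMSO and at 71.6, 68.9 and 71.6 with AMG900. It fell to 0.397 of the DMSO level (log2 -1.33, SE 0.05, adjusted p = 2.14e-07). In A549 it was the more abundant by far, at 624 to 658 CPM with DMSO and 530 to 587 with AMG900. Those groups did not overlap, but the log2 fold change of -0.20 (SE 0.06) missed the threshold with an adjusted p of 0.0142 and passed it without DMSO replicate 1 (adjusted p = 0.00151).

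Of the hydroxylases that mark HIF alpha for degradation, EGLN1 and EGLN3 fell in H1792 and neither was called in A549. EGLN1 was at 40.7, 38.2 and 38.5 CPM in H1792 with DMSO and at 26.99, 28.9 and 31.4 with AMG900 (log2 -0.43, SE 0.07, adjusted p = 0.000768). EGLN3, itself a HIF target, was at 8.96, 7.72 and 7.84 CPM and at 5.00, 4.95 and 5.53 (log2 -0.66, SE 0.11, adjusted p = 0.000585). Neither gene's groups overlapped in H1792. In A549, EGLN1 ranged from 54.4 to 63.5 CPM with DMSO and from 48.9 to 55.6 with AMG900, and EGLN3 from 3.21 to 6.58 and from 4.70 to 6.80, with overlapping groups.

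**Figure D2:**
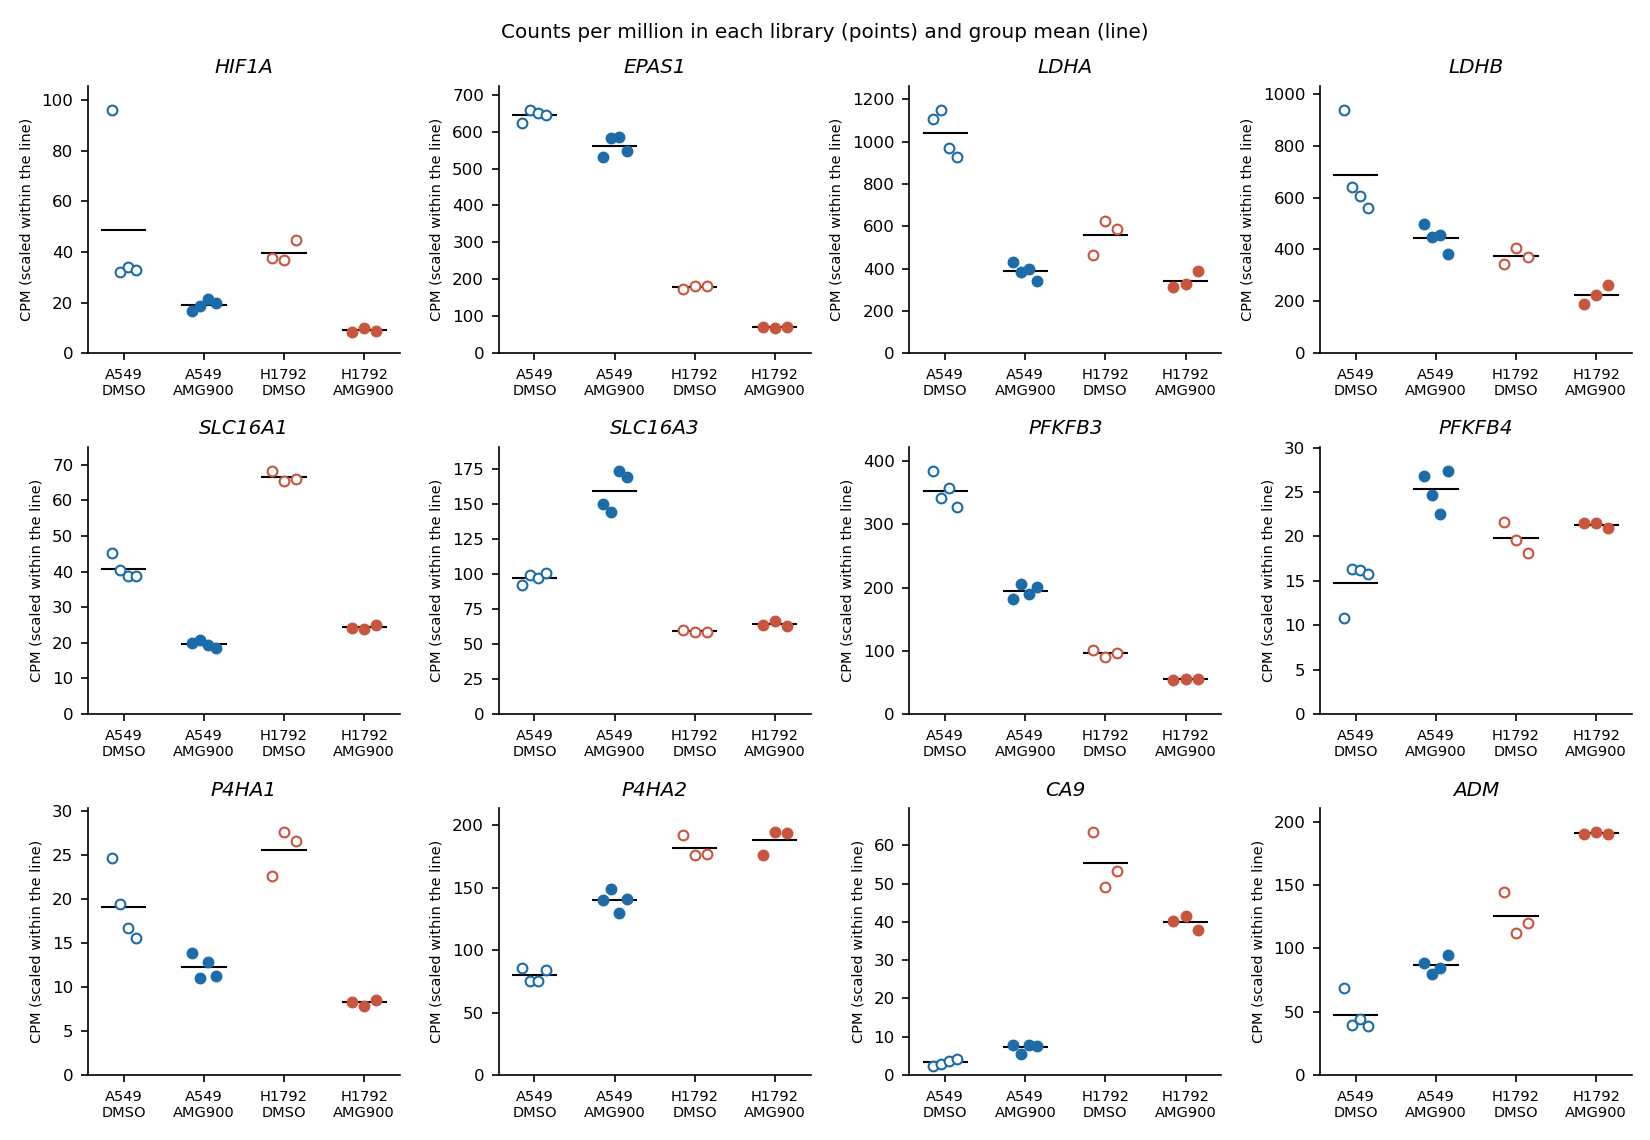
CPM of 12 members in each library (points; open for DMSO, filled for AMG900; blue for A549 and red for H1792), with group means as black lines and each vertical axis starting at 0. HIF1A in A549 DMSO replicate 1 stands at 96.1 CPM above 3 libraries at 32.0 to 34.1, and CA9 is higher with AMG900 in A549 and lower with AMG900 in H1792.

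Of the glucose transporters, SLC2A1, the main basal importer of many cells, fell in both lines. In A549 it was at 264, 315, 309 and 325 CPM with DMSO and at 195, 201, 205 and 191 with AMG900 (log2 -0.62, SE 0.07, adjusted p = 8.9e-06). SLC2A1 in H1792 was at 440, 444 and 442 CPM and at 388, 386 and 369, a smaller fall (log2 -0.21, SE 0.05, adjusted p = 0.00333) in which the groups still did not overlap. SLC2A3, a high-affinity importer, was called in H1792 alone, from 3.99, 4.95 and 4.44 CPM to 2.86, 2.97 and 3.30 (log2 -0.55, SE 0.14, adjusted p = 0.00709). In A549 its groups overlapped, at 10.6 to 16.4 CPM with DMSO and 13.1 to 16.2 with AMG900. Leaving out H1792 DMSO replicate 3 or any of its AMG900 replicates lost the SLC2A1 call there (adjusted p between 0.0139 and 0.0199), and leaving out any H1792 library but DMSO replicate 1 lost the SLC2A3 call (0.0147 to 0.0362).

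Of the 9 enzymes of upper glycolysis, 3 were called up and 2 down in A549, and 1, HK2, was called down in H1792. HK1, the housekeeping hexokinase that phosphorylates glucose, was at 101, 95.3, 104 and 98.8 CPM in A549 with DMSO and at 118, 129, 126 and 130 with AMG900, with no overlap (log2 0.33, SE 0.07, adjusted p = 0.00122). HK2, the inducible hexokinase of many tumours, was at 66.9, 69.2 and 65.7 CPM in H1792 with DMSO and at 38.9, 40.5 and 39.9 with AMG900, a clear separation (log2 -0.76, SE 0.06, adjusted p = 6.07e-06). In A549 it was near the limit of counting, with 6 to 62 counts per library and overlapping groups. HK1 in H1792 was at 332 to 346 CPM with DMSO and 320 to 327 with AMG900 (adjusted p = 0.2).

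GPI, which interconverts the first pair of sugar phosphates, was at 1398, 1645, 1722 and 1701 CPM in A549 with DMSO and at 1245, 1248, 1238 and 1251 with AMG900 (log2 -0.38, SE 0.07, adjusted p = 0.000372). Its H1792 libraries overlapped, at 1946 to 2149 and 2018 to 2119 CPM. TPI1, the triose phosphate isomerase, was at 1367, 1262, 1278 and 1274 CPM in A549 and at 1079, 1044, 947 and 1042 with AMG900 (log2 -0.33, SE 0.06, adjusted p = 0.000423). Both genes had lower values in every A549 AMG900 library. ALDOC, a minor aldolase, rose from 6.34, 10.9, 11.5 and 10.3 CPM to 18.9, 13.5, 14.8 and 16.7 in A549 (log2 0.66, SE 0.17, adjusted p = 0.0054), without overlap. That call was lost without DMSO replicate 2 or 4 or AMG900 replicate 1, 3 or 4 (adjusted p between 0.0102 and 0.022).

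Among the phosphofructokinase genes, whose product catalyses the committed step of glycolysis, only PFKL was called. In A549 it was at 112, 93.5, 96.9 and 94.9 CPM with DMSO and at 111, 121, 123 and 135 with AMG900 (log2 0.31, SE 0.08, adjusted p = 0.00633). The groups overlapped at DMSO replicate 1, and the call was lost without any of replicates 2 to 4 of either treatment (adjusted p between 0.0162 and 0.0279). PFKM (90.9 to 101 and 96.6 to 110 CPM) and PFKP (533 to 577 and 616 to 637 CPM) were not called in A549, although PFKP passed without DMSO replicate 1 (log2 0.21, adjusted p = 0.00113). In H1792 the log2 fold changes of PFKL, PFKM and PFKP were -0.12, -0.15 and 0.07, and PFKL passed without DMSO replicate 2 (log2 -0.20, adjusted p = 0.00748) and PFKM without DMSO replicate 1 (-0.19, 0.00386). ALDOA, the main aldolase, was at 2375 to 2738 and 2168 to 2432 CPM in A549 and at 3232 to 3968 and 3183 to 3237 in H1792, where it passed without DMSO replicate 2 (log2 -0.23, adjusted p = 0.0031), as did TPI1 (-0.21, 0.0087).

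In lower glycolysis, PGK1, PGAM1 and ENO1 fell in both lines, and GAPDH and PKM changed by at most 0.19 on the log2 scale. PGK1, the first ATP-forming enzyme of the route, was at 443, 567, 545 and 565 CPM in A549 with DMSO and at 350, 339, 330 and 308 with AMG900 (log2 -0.68, SE 0.08, adjusted p = 9.67e-06). PGK1 in H1792 was at 575, 588 and 558 CPM and at 364, 390 and 384 (log2 -0.60, SE 0.05, adjusted p = 1.1e-05). The groups were well apart in both lines, at 0.624 and 0.661 of the DMSO level. PGAM1, a mutase, was at 277, 378, 360 and 359 CPM in A549 and at 208, 193, 215 and 190 with AMG900 (log2 -0.77, SE 0.09, adjusted p = 7.62e-06). PGAM1 in H1792 was at 274, 305 and 299 CPM and at 247, 255 and 242 (log2 -0.24, SE 0.06, adjusted p = 0.00511), a narrower gap that lost its call without DMSO replicate 3 or any AMG900 replicate (adjusted p between 0.018 and 0.0292). Several of these genes, GAPDH and PGAM1 among them, have near-identical processed copies in the genome, so reads could have been lost or shared in counting.

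ENO1, the main enolase, was at 3338, 3311, 3453 and 3475 CPM in A549 with DMSO and at 2953, 3014, 2833 and 3103 with AMG900 (log2 -0.19, SE 0.05, adjusted p = 0.00856). ENO1 in H1792 was at 6909, 5666 and 6064 CPM and at 4907, 5025 and 4922 (log2 -0.33, SE 0.07, adjusted p = 0.0023). The groups did not overlap, but the A549 call was lost without DMSO replicate 2, 3 or 4 or AMG900 replicate 1, 2 or 3 (adjusted p between 0.019 and 0.0354) and the H1792 call without any AMG900 replicate (0.0114 to 0.0143). ENO2, the neuronal-type enolase, rose in A549 from 120, 121, 117 and 122 CPM to 143, 153, 129 and 148 (log2 0.25, SE 0.07, adjusted p = 0.0096), a call lost without DMSO replicate 2, 3 or 4 or AMG900 replicate 1, 2 or 4 (0.0223 to 0.0391). Its H1792 libraries overlapped at 74.1 to 92.5 and 79.3 to 81.9 CPM.

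GAPDH, a common reference gene, was at 8167 to 10058 CPM in A549 with DMSO and at 9335 to 9773 with AMG900 (log2 0.02, adjusted p = 0.796). GAPDH in H1792 was at 10294, 9995 and 9888 CPM and at 11929, 11568 and 10959 (log2 0.19, SE 0.05, adjusted p = 0.00667), and the call was lost without DMSO replicate 3 or AMG900 replicate 1 or 2 (adjusted p between 0.0342 and 0.0429). PKM, the pyruvate kinase of these cells, was at 7021 to 7429 and 6133 to 6792 CPM in A549 (log2 -0.15, adjusted p = 0.025) and at 6413 to 7133 and 6399 to 6576 in H1792 (-0.05, 0.388). Per kb of the representative transcript, GAPDH was the most abundant member in all 4 groups, at 6991 CPM per kb in A549 with DMSO and 8018 in H1792. PKM and ENO1 took the next places and ALDOA the fourth in every group.

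The PFKFB genes encode bifunctional enzymes that set the level of fructose 2,6-bisphosphate, the activator of phosphofructokinase. PFKFB3, the isoform with the strongest kinase activity, fell by similar factors in both lines. It was at 384, 341, 358 and 327 CPM in A549 with DMSO and at 183, 207, 190 and 201 with AMG900 (log2 -0.85, SE 0.07, adjusted p = 2.6e-07). PFKFB3 in H1792 was at 101, 90.6 and 97.4 CPM and at 53.8, 55.6 and 54.9 (log2 -0.82, SE 0.06, adjusted p = 5.39e-06). AMG900 libraries were thus at 0.554 and 0.567 of the DMSO level, with no overlap. PFKFB4 rose in A549, from 10.8, 16.3, 16.2 and 15.8 CPM to 26.8, 24.6, 22.5 and 27.3 (log2 0.74, SE 0.13, adjusted p = 0.000396), and was at 18.2 to 21.6 and 20.9 to 21.6 CPM in H1792. PFKFB2 fell in A549, from 14.6, 14.6, 11.5 and 12.5 CPM to 7.94, 9.13, 8.68 and 9.18 (log2 -0.59, SE 0.14, adjusted p = 0.00339), which was lost without DMSO replicate 2 or AMG900 replicate 1 or 3 (adjusted p between 0.0106 and 0.0143). In H1792 it was scarce, at 1.33 to 1.78 and 0.726 to 1.22 CPM (adjusted p = 0.0452).

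At the lactate end of the route, LDHA, LDHB and SLC16A1 fell in both lines while SLC16A3 rose in A549. LDHA (chr11:18416107-18429972), whose product favours lactate formation, was at 1110, 1149, 970 and 928 CPM in A549 with DMSO and at 432, 383, 398 and 343 with AMG900. It fell to 0.374 of the DMSO level without overlap (log2 -1.42, SE 0.09, adjusted p = 8.25e-09). LDHA in H1792 was at 463, 625 and 589 CPM and at 314, 327 and 388 (log2 -0.71, SE 0.11, adjusted p = 0.000434), again without overlap. LDHB, which favours pyruvate, was at 938, 642, 605 and 559 CPM in A549 and at 498, 448, 455 and 383 with AMG900 (log2 -0.62, SE 0.13, adjusted p = 0.00153). In H1792 LDHB was at 344, 407 and 372 CPM and at 190, 224 and 262 (log2 -0.73, SE 0.10, adjusted p = 0.000247). DMSO replicate 1 was again the highest A549 library for LDHB, and the call held without it.

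SLC16A1 (chr1:113454469-113500215), which encodes the widely expressed monocarboxylate transporter, was at 45.1, 40.5, 38.7 and 38.9 CPM in A549 with DMSO and at 20.03, 20.9, 19.5 and 18.4 with AMG900 (log2 -1.04, SE 0.10, adjusted p = 1.1e-06). SLC16A1 in H1792 was at 68.2, 65.4 and 66.0 CPM and at 24.01, 23.9 and 25.1 (log2 -1.45, SE 0.06, adjusted p = 2.25e-07). It therefore stood at 0.486 and 0.366 of the DMSO level, with tight replicates. SLC16A3 (chr17:80175810-80219005), the exporter typical of glycolytic cells and a HIF target, rose in A549 from 91.9, 99.6, 97.5 and 101 CPM to 150, 144, 173 and 169 (log2 0.71, SE 0.08, adjusted p = 4.53e-06). In H1792 it was at 60.2, 58.9 and 58.9 CPM and at 63.3, 66.4 and 62.9 (log2 0.11, SE 0.05, adjusted p = 0.105), not overlapping but not called.

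The pyruvate dehydrogenase kinases, which restrain entry of pyruvate into mitochondria, did not share a direction. PDK2 rose in both lines, from 22.3, 33.0, 34.9 and 33.0 CPM to 42.9, 41.2, 43.5 and 42.8 in A549 (log2 0.44, SE 0.12, adjusted p = 0.0066) and from 33.7, 37.0 and 36.7 to 44.6, 43.7 and 43.6 in H1792 (0.30, SE 0.06, 0.0028). Groups did not overlap, but the calls were lost without DMSO replicate 2 or 4 or any AMG900 replicate in A549 (adjusted p between 0.012 and 0.0209) and without DMSO replicate 3 or any AMG900 replicate in H1792 (0.0119 to 0.0181). With GC correction PDK2 was at 0.07 (adjusted p = 0.644) in A549 and -0.01 (0.914) in H1792, called in neither. Exons of SAMD14 on the other strand overlap 38.6% of the PDK2 exons, and whether strand was used in counting is not given in the sources used here. PDK3 fell in A549, from 17.9, 14.7, 9.12 and 9.74 CPM to 7.18, 8.77, 6.04 and 4.53 (log2 -0.91, SE 0.24, adjusted p = 0.00617), which was lost without DMSO replicate 2 or AMG900 replicate 1, 3 or 4 (0.0139 to 0.0239), and was at 21.4 to 23.9 and 21.2 to 22.2 CPM in H1792. PDK1, a HIF target, fell in H1792 from 7.55, 9.15 and 8.91 CPM to 5.03, 5.15 and 6.21 (log2 -0.64, SE 0.12, adjusted p = 0.00156), which was lost without AMG900 replicate 1 or 2 (0.0101 to 0.0125). PDK1 in A549 (0.97 to 2.39 CPM) and PDK4 in both lines (12.2 to 23.97 CPM in A549, 3.39 to 4.51 in H1792) were not called.

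Among the 11 further HIF targets, the direction varied from gene to gene: 3 were up and 3 down in A549, and 1 was up and 6 down in H1792. ADM (chr11:10326620-10328944), which encodes the vasodilator peptide adrenomedullin, rose in both lines. It was at 68.9, 39.3, 44.2 and 38.5 CPM in A549 with DMSO and at 88.8, 80.1, 84.6 and 95.02 with AMG900 (log2 0.91, SE 0.15, adjusted p = 0.000159). ADM in H1792 was at 144, 112 and 120 CPM and at 190, 192 and 191 (log2 0.61, SE 0.08, adjusted p = 0.000187). The AMG900 libraries were above all DMSO libraries of the line. CA9 (chr9:35673925-35681156), a membrane carbonic anhydrase often used as a hypoxia marker, was at 2.35, 3.00, 3.66 and 4.16 CPM in A549 and at 7.94, 5.62, 7.71 and 7.63 with AMG900, a rise to 2.1 times the DMSO level (log2 1.07, SE 0.21, adjusted p = 0.000859). In H1792 it was at 63.4, 49.2 and 53.2 CPM and at 40.2, 41.5 and 37.9, a fall (log2 -0.47, SE 0.09, adjusted p = 0.00155) that lost its call without AMG900 replicate 1 or 3 (0.0102 to 0.0122). Exons of ARHGEF39 on the other strand overlap 35.7% of the CA9 exons.

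P4HA1 and P4HA2 encode alternative catalytic subunits of collagen prolyl hydroxylase, and they moved apart in A549. P4HA1 fell in A549 from 24.7, 19.4, 16.7 and 15.6 CPM to 13.9, 11.02, 12.9 and 11.2 (log2 -0.61, SE 0.16, adjusted p = 0.00489), which was lost without DMSO replicate 2 or AMG900 replicate 2, 3 or 4 (0.0118 to 0.0197). In H1792 it fell from 22.6, 27.6 and 26.6 CPM to 8.30, 7.87 and 8.58, or 0.323 of the DMSO level (log2 -1.63, SE 0.09, adjusted p = 1.9e-06). P4HA2 rose in A549 from 85.5, 75.6, 75.2 and 84.1 CPM to 140, 149, 130 and 141 (log2 0.81, SE 0.08, adjusted p = 1.01e-06) and was at 177 to 192 and 176 to 195 CPM in H1792. The P4HA2 groups were far apart in A549 and overlapped in H1792. With GC correction P4HA1 in A549 was at -0.18 (adjusted p = 0.307) and no longer called, while P4HA2 was at 0.98 (adjusted p = 1.66e-07).

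BNIP3, a mitophagy receptor, was slightly lower in both lines, at 61.1, 65.0, 68.4 and 65.8 CPM in A549 with DMSO and 51.9, 54.3, 50.7 and 48.8 with AMG900 (log2 -0.34, SE 0.08, adjusted p = 0.00253) and at 116, 124 and 116 and 96.3, 100.2 and 93.8 in H1792 (-0.29, SE 0.06, 0.00154). These calls were lost without A549 DMSO replicate 3 or AMG900 replicate 3 (0.0106 to 0.0128) and without H1792 AMG900 replicate 1 or 3 (0.0116 to 0.0118). With GC correction BNIP3 was at -0.01 (adjusted p = 0.922) in A549 and -0.04 (0.477) in H1792, called in neither. Its relative BNIP3L fell in H1792 from 38.4, 47.3 and 41.8 CPM to 30.4, 31.1 and 29.2 (log2 -0.49, SE 0.08, adjusted p = 0.000643) and was at 39.0 to 48.4 and 44.3 to 56.3 CPM in A549. KDM3A, a histone demethylase, fell in A549 from 20.7, 23.9, 21.4 and 18.2 CPM to 14.3, 13.3, 14.3 and 11.1 (log2 -0.67, SE 0.13, adjusted p = 0.000889) and in H1792 from 16.2, 18.9 and 18.6 to 13.6, 13.4 and 13.9 (-0.39, SE 0.08, 0.00328). The H1792 call was lost without DMSO replicate 3 or any AMG900 replicate (0.0122 to 0.0195). DDIT4, an inhibitor of mTORC1, fell in H1792 from 565, 516 and 540 CPM to 453, 451 and 457 (log2 -0.25, SE 0.05, adjusted p = 0.00198), which was lost without DMSO replicate 3 or AMG900 replicate 1 or 2 (0.0122 to 0.0164), and was at 500.5 to 556 and 517 to 597 CPM in A549.

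VEGFA, the angiogenic growth factor, NDRG1, a stress-response gene, and ANKRD37 were called in neither line. A fall was called with GC correction for VEGFA in A549 (log2 -0.31, adjusted p = 0.00481) and for NDRG1 in H1792 (-0.28, 0.000274). VEGFA was at 71.5 to 78.0 CPM with DMSO and 59.6 to 67.9 with AMG900 in A549 (log2 -0.23, adjusted p = 0.0259) and at 161 to 174 and 167 to 173 in H1792 (0.03, 0.615). NDRG1 was at 47.2 to 53.7 and 58.0 to 63.6 CPM in A549 (log2 0.25, adjusted p = 0.02), passing without DMSO replicate 1 (adjusted p = 0.00765), and at 160 to 168 and 150 to 163 in H1792. ANKRD37 had 5 to 108 counts per library and approximate 95% intervals of the log2 fold change from -0.36 to 1.18 in A549 and from -0.64 to 0.49 in H1792. These were too wide to show a moderate change, and 40.3% of its exons are overlapped by exons on the other strand.

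To see whether partner genes shifted against each other, the share of each isozyme or transporter among the members of its family was computed per kb of representative transcript. In A549, LDHA made up 40.8%, 51.0%, 48.2% and 49.1% of LDHA plus LDHB with DMSO and 33.5%, 33.2%, 33.7% and 34.3% with AMG900. In H1792 it made up 43.9%, 47.2% and 47.9% and then 49.0%, 45.9% and 46.3%. The A549 groups were apart by -13.6 points (p = 0.0286 by a two-sided exact permutation test, a design of 4 against 4 allowing none smaller, and adjusted p = 0.08 over 14 shares), whereas those of H1792 overlapped (p = 0.7).

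The SLC16A3 share of SLC16A1 plus SLC16A3 was 77.5% ± 1.94 (SD, n = 4) with DMSO and 92.1% ± 1.01 with AMG900 in A549, and 56.3% ± 0.232 (SD, n = 3) and 79.2% ± 0.850 in H1792. It was higher in every AMG900 library of both lines, and the exact test gave the smallest p each design allows, 0.0286 and 0.1 (adjusted 0.08 and 0.127). The SLC2A3 share was 3.93% ± 0.466 and 6.17% ± 0.614 in A549 and 0.884% ± 0.0899 and 0.703% ± 0.0724 in H1792. HK2 made up 1.48% ± 0.707 and 1.29% ± 0.590 of HK1 plus HK2 in A549, with overlapping groups, and 11.2% ± 0.487 and 7.29% ± 0.140 in H1792. HKDC1, a hexokinase gene that is no member and is not in this share, was at 166 ± 24.6 CPM with DMSO and 199 ± 9.91 with AMG900 in A549 (SD, n = 4). ENO2 went from 2.67% ± 0.0851 to 3.60% ± 0.163 in A549 and from 0.997% ± 0.0373 to 1.25% ± 0.0230 in H1792, and ALDOC from 0.394% ± 0.109 to 0.722% ± 0.111 and from 0.680% ± 0.0976 to 0.854% ± 0.0239. PFKP held 76.4% ± 0.0989 and 76.1% ± 0.394 in A549 and 74.6% ± 0.626 and 77.1% ± 0.534 in H1792. No share passed 0.05 after adjustment over the 14, and with the smallest p-values these designs allow none could.

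**Figure D3:**
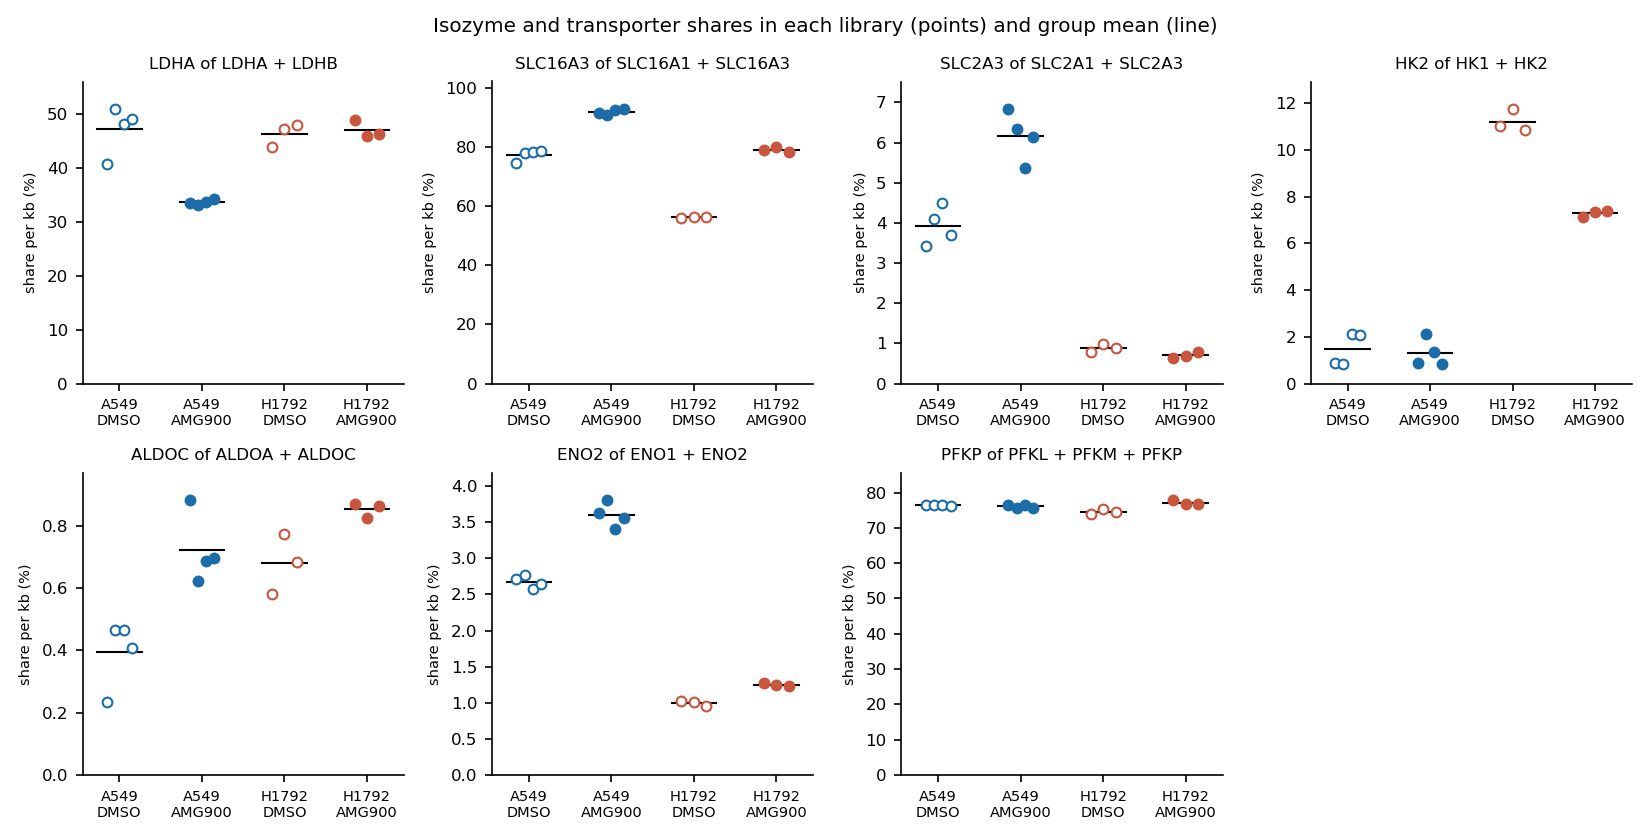
Share (%), per kb of transcript, of the named isozyme or transporter in each library (points; open for DMSO, filled for AMG900; blue for A549, red for H1792), with group means as black lines. The LDHA share is lower with AMG900 in A549 (33.7% against 47.3%) and overlaps in H1792, while the SLC16A3 share is higher with AMG900 in both lines.

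The 15 glycolytic enzymes with LDHA and LDHB accounted for 2.98% ± 0.111 of all counts in A549 with DMSO (SD, n = 4) and 2.54% ± 0.0436 with AMG900, and for 3.41% ± 0.0702 (SD, n = 3) and 3.14% ± 0.0478 in H1792. On the scale of TMM-adjusted CPM the AMG900 sum was 0.947 of the DMSO sum in A549 and 0.966 in H1792. The H1792 ratio moved to 1.02 with the size factors of DESeq2. GAPDH, PKM, ENO1 and ALDOA carry most of this sum.

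GC content moved with the change in both lines and is given here beside the results. Over all genes with a matched transcript, the log2 fold change correlated with transcript GC content at a Spearman rho of 0.499 in A549 (12770 genes) and 0.481 in H1792 (14375 genes). Over the 43 members rho was 0.543 and 0.596, across genes that share the same libraries. Of the 21 members below the median GC content of 52.6%, 10 were called down and 1 up in A549 and 14 were called down in H1792, while of the 22 others 6 and 7 were called down and 9 and 3 up. The trend ran over all genes too, and the shares of all genes called in these GC classes were not computed. The split is thus not shown to be particular to the members. BNIP3L (37.4% GC), HIF1A (39.4%), PDK4 (39.4%), PDK1 (39.5%), P4HA1 (39.7%), SLC16A1 (40.3%) and LDHA (41.8%) were at the low end. Of these, BNIP3L (log2 0.13), PDK4 (-0.01) and PDK1 (-0.52) were not called in A549, and PDK4 (-0.24) was not called in H1792. PFKFB3 (55.6%) fell in both lines and EPAS1 (52.6%) in H1792 at higher GC, and P4HA2 (44.95%) rose in A549 at lower GC. The part of GC content in the changes was not tested.

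**Figure D4:**
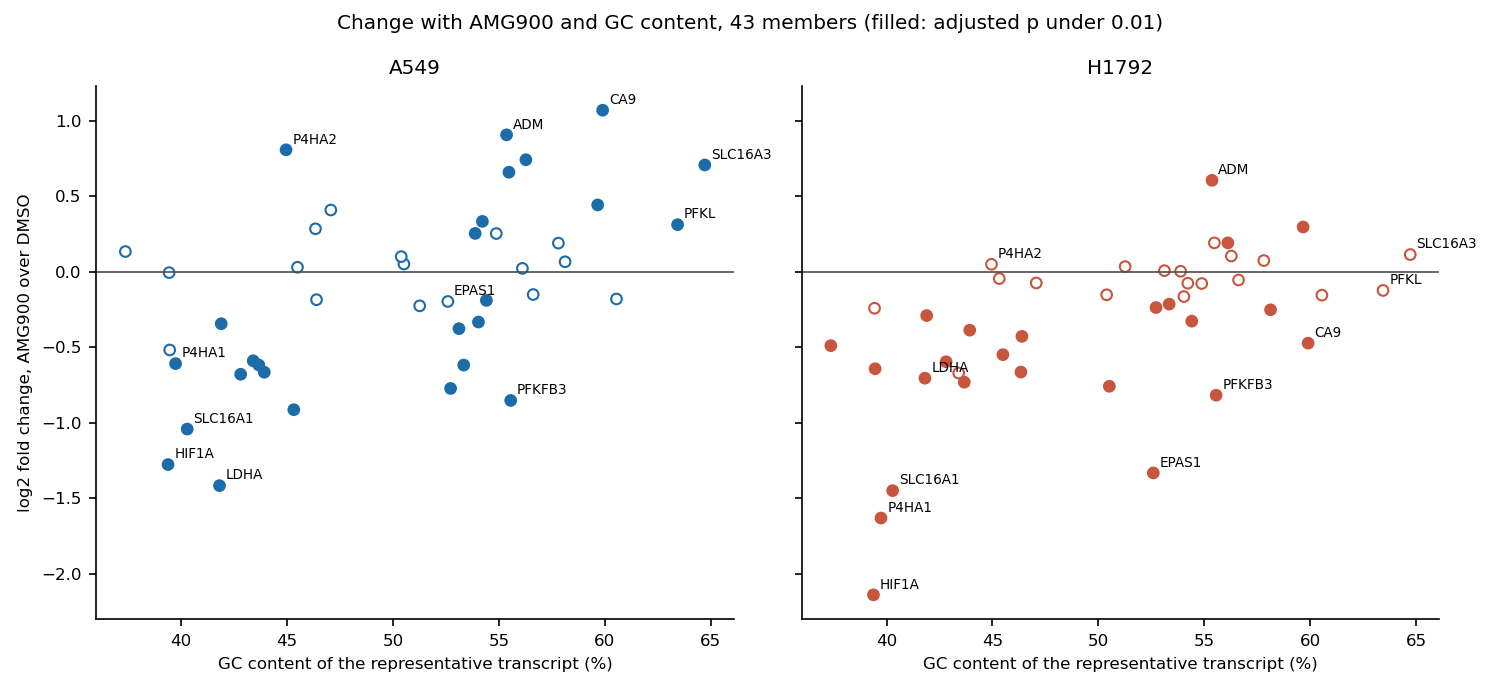
Log2 fold change with AMG900 over DMSO against GC content (%) of the representative transcript for the 43 members in A549 (left) and H1792 (right); filled points passed an adjusted p of 0.01. Points run from low left to high right (rho 0.543 and 0.596), with PFKFB3 below and ADM above most members of like GC content in both lines, EPAS1 below them in H1792 and P4HA2 above them in A549.

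When each library's counts were corrected for GC content, 3 of the 10 rises in A549 kept their call (ADM, P4HA2 and PFKFB4) and 10 of the 16 falls did (SLC2A1, GPI, TPI1, PGK1, PGAM1, ENO1, PFKFB3, LDHA, SLC16A1 and KDM3A). HIF1A in A549 no longer passed (log2 -0.81, adjusted p = 0.0278), nor did the falls of PFKFB2, LDHB, PDK3, BNIP3 and P4HA1. The rises lost in A549 were those of HK1, PFKL, ALDOC, ENO2, SLC16A3, PDK2 and CA9. In H1792, ADM alone of the 3 rises and 17 of the 21 falls kept theirs, the falls of PDK1, BNIP3, BNIP3L and KDM3A being lost. Newly called down in H1792 were HK1, PFKL, PFKM, PFKP, ALDOA, TPI1, PKM, NDRG1 and SLC16A3. This gave 1 member up and 26 down there, where 2129 and 3361 of 14375 genes were. Newly called down in A549 were EPAS1, ALDOA, GAPDH, PKM, VEGFA and DDIT4. After correction ALDOA, PKM, TPI1, DDIT4 and EPAS1 were called down in both lines, which they had not been before it. SLC2A1, PGK1, PGAM1, ENO1, PFKFB3, LDHA and SLC16A1 were still called down in both, whereas HIF1A, LDHB, BNIP3, P4HA1 and KDM3A no longer were. The share of all genes called down in both lines after correction was not computed. BNIP3L was called up in A549 (log2 0.62, adjusted p = 0.000135). The rise of SLC16A3 in A549 went to 0.24 (adjusted p = 0.0349), and in H1792 its value turned to -0.24 (adjusted p = 0.00837).

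The next question was whether the response differed between the lines, which was tested by an interaction term in a joint fit of all 14 libraries. The AMG900 effect was lower in H1792 than in A549 for 13 members and higher for 2, where 9.17% and 5.37% of 14769 genes were called lower and higher. The median difference was -0.32 over the members and -0.10 over all genes. With the size factors of DESeq2 the counts were 8 lower and 4 higher, with total counts 9 and 4, and with the DESeq2 test 13 and 4. Over all 14769 genes, 1355 were lower and 793 higher in the main fit. These became 1033 and 1012 with the size factors, 1047 and 988 with total counts, and 1450 and 1416 with the DESeq2 test. In this fit the normalization factors of A549 AMG900 against DMSO libraries shifted by -0.08 on the log2 scale relative to the fit within the line, and those of H1792 by -0.003, so a difference is lower than that of the within-line values by about that amount.

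The differences of 7 members held under every alternative. CA9 had a log2 difference of -1.59 (SE 0.21, adjusted p = 1.26e-05). EPAS1 was at -1.21 (SE 0.08, adjusted p = 1.47e-09), P4HA1 at -1.11 (SE 0.19, 0.000233) and P4HA2 at -0.83 (SE 0.10, 6.12e-06). The others were BNIP3L at -0.70 (SE 0.14, adjusted p = 0.000937), SLC16A3 at -0.67 (SE 0.10, 9.87e-05) and HK1 at -0.49 (SE 0.09, 0.000401). For CA9 the lines moved in opposite directions. For P4HA1 the fall was deeper in H1792, and for EPAS1 a fall was called in H1792 alone. The rises of P4HA2, SLC16A3 and HK1 were called in A549 alone.

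LDHA had a difference of 0.64 (SE 0.14, adjusted p = 0.00276), its fall being deeper in A549, and lost the call without H1792 AMG900 replicate 3 (adjusted p = 0.013). PGAM1, at 0.46 (SE 0.12, adjusted p = 0.00877), passed without A549 DMSO replicate 1 or AMG900 replicate 3 and lost the call without any other library (0.0108 to 0.0337). SLC16A1 was at -0.49 (SE 0.11, 0.0028), lost without H1792 AMG900 replicate 1 or 2 (0.0117 to 0.0119). PFKL was at -0.51 (SE 0.12, 0.00282), lost without H1792 AMG900 replicate 3 (0.0102). DDIT4 was at -0.40 (SE 0.09, 0.00339), lost without H1792 AMG900 replicate 1 or 2 (0.0106 to 0.0118). NDRG1 was at -0.41 (SE 0.09, 0.00354), lost without A549 DMSO replicate 4, H1792 DMSO replicate 3 or H1792 AMG900 replicate 2 or 3 (0.0105 to 0.0153).

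PFKFB4 was at -0.70 (SE 0.17, adjusted p = 0.00448), lost without A549 AMG900 replicate 4, H1792 DMSO replicate 1 or any H1792 AMG900 replicate (0.0105 to 0.0142). EGLN3 was at -1.04 (SE 0.26, 0.00659) and kept its call only without A549 DMSO replicate 1 or 4, A549 AMG900 replicate 1 or 2 or H1792 DMSO replicate 2 (0.0114 to 0.0214 for the others). HIF1A, at -0.96 (SE 0.37), missed the threshold with an adjusted p of 0.0649, but without A549 DMSO replicate 1 its difference was -1.43 (adjusted p = 2.35e-07). Leaving out that library also brought SLC2A1 (0.39, 0.000209), GPI (0.38, 0.00022) and ADM (-0.56, 0.00127) past it, and leaving out A549 DMSO replicate 4 did so for PFKM (-0.37, 0.00925). With the size factors of DESeq2 the calls of EGLN3, PFKL, SLC16A1, NDRG1 and DDIT4 were lost (adjusted p between 0.0119 and 0.019), with total counts those of EGLN3, PFKFB4, SLC16A1 and NDRG1 (0.012 to 0.0162), and without a filter on low counts those of SLC16A1 and NDRG1 (0.012 and 0.011). PFKFB3 and PGK1 had differences of -0.04 (approximate 95% interval -0.23 to 0.15) and 0.01 (-0.20 to 0.22).

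**Figure D5:**
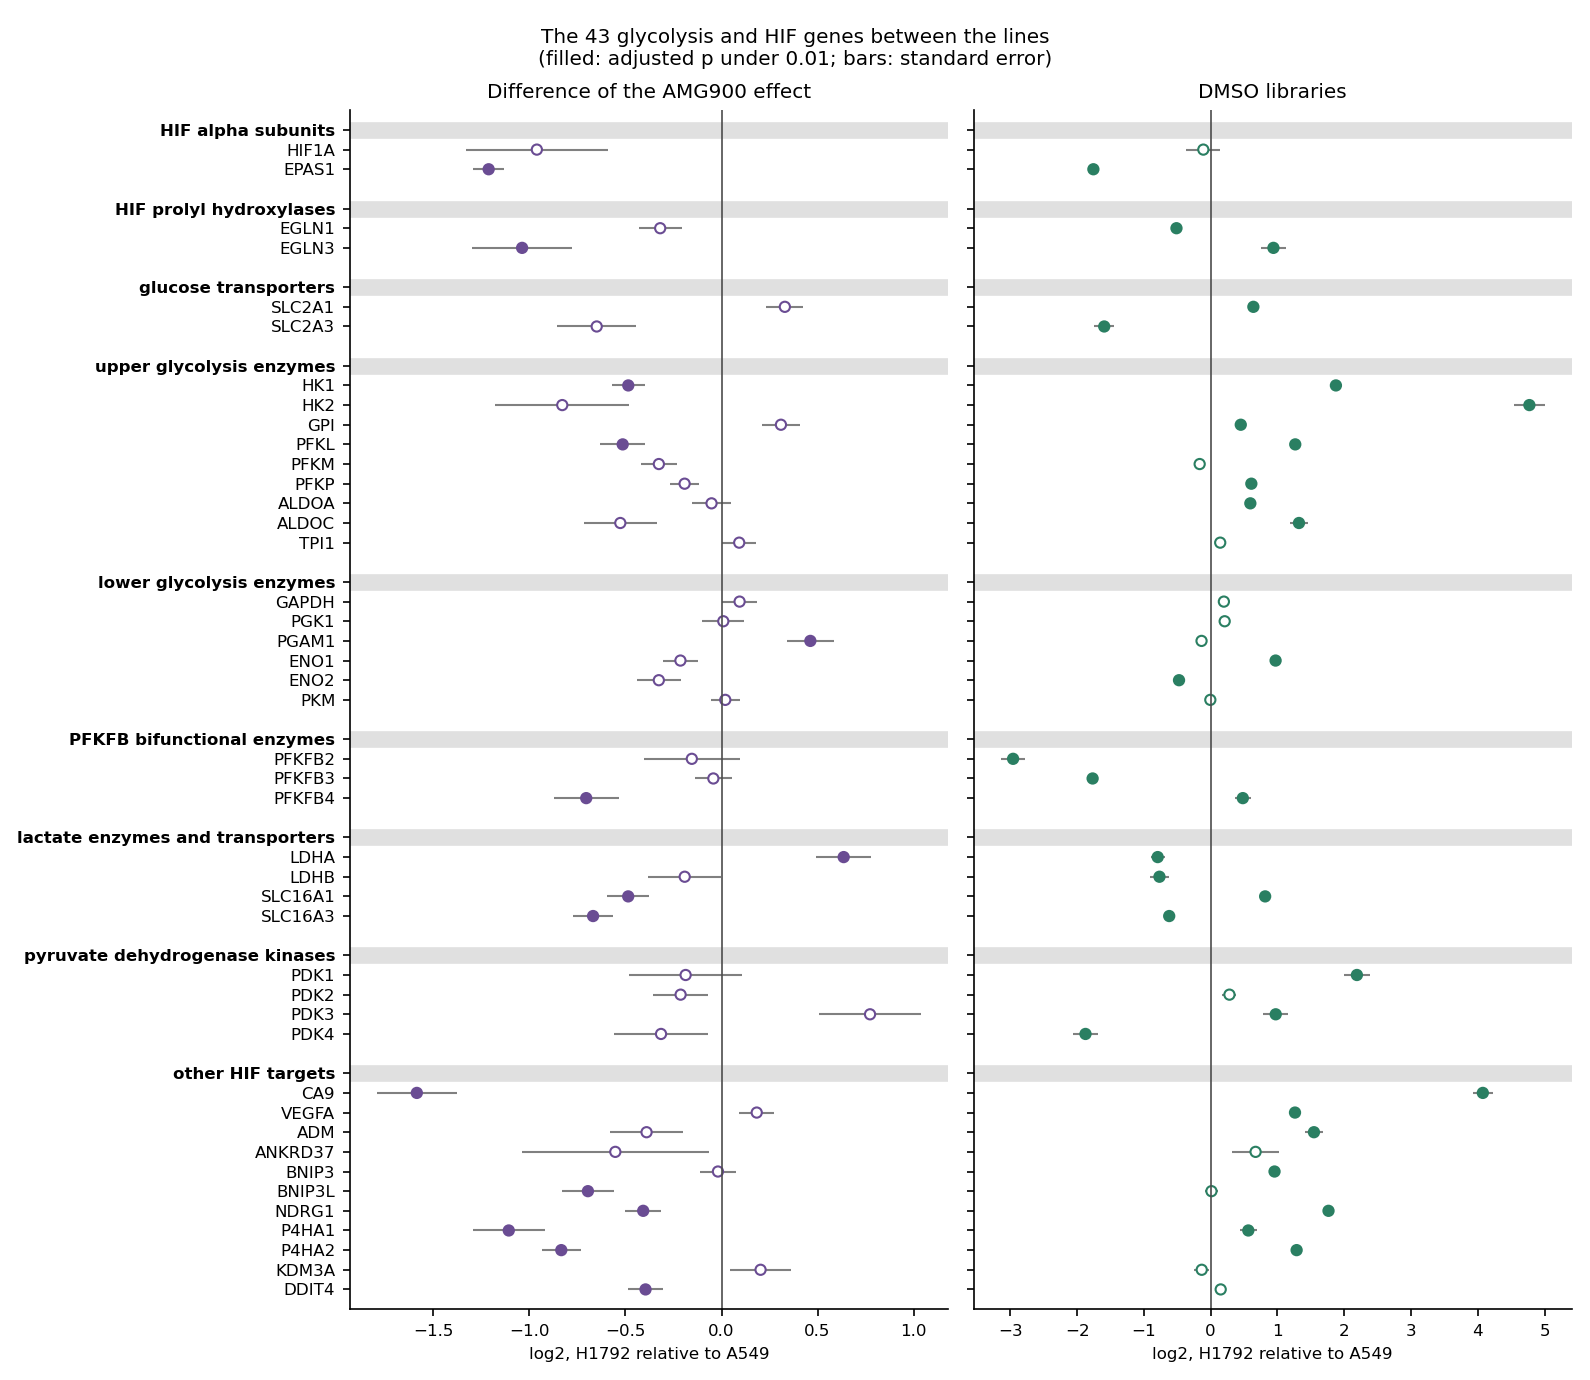
Left, log2 difference of the AMG900 effect (H1792 minus A549) for each member; right, log2 ratio of H1792 over A549 in the DMSO libraries, on a wider axis. Bars are standard errors and filled points passed an adjusted p of 0.01; CA9 is lowest on the left at -1.59 and HK2 highest on the right at 4.77.

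Among DMSO-treated libraries, 21 members were higher in H1792 and 10 lower, where 34.2% and 31.9% of all genes were, and the median difference was 0.45 against 0.04. All 31 calls held under every alternative. Line, culture medium, depth and table cannot be told apart in this comparison. Levels here are CPM scaled over all 14 libraries.

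Of the members higher in H1792, HK2 was at 68.6, 70.8 and 67.3 CPM in H1792 and at 1.33, 1.20, 3.39 and 3.17 in A549 (log2 4.77, SE 0.23, adjusted p = 4.87e-13). CA9 was at 65.0, 50.3 and 54.5 CPM and at 2.22, 2.84, 3.53 and 4.03 (log2 4.07, SE 0.15, adjusted p = 8.14e-15). PDK1 (2.19), HK1 (1.87), NDRG1 (1.76), ADM (1.55), ALDOC (1.32), P4HA2 (1.29), PFKL (1.27) and VEGFA (1.26) followed, as log2 differences. ENO1 and PDK3 (both 0.97), BNIP3 (0.96), EGLN3 (0.94), SLC16A1 (0.82), SLC2A1 (0.64), PFKP (0.61), ALDOA (0.59), P4HA1 (0.56), PFKFB4 (0.48) and GPI (0.45) were also higher, P4HA1 with overlapping groups.

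Lower in H1792 were PFKFB2, at 1.36, 1.70 and 1.82 CPM against 13.7, 13.8, 11.1 and 12.2 in A549 (log2 -2.96, SE 0.18, adjusted p = 2.49e-11), and PDK4 (-1.87), PFKFB3 (-1.77), EPAS1 (-1.76), SLC2A3 (-1.59), LDHA (-0.79), LDHB (-0.77), SLC16A3 (-0.62), EGLN1 (-0.51) and ENO2 (-0.47). EPAS1 was at 177, 185 and 186 CPM against 588, 622, 626 and 627. HIF1A did not pass (log2 -0.11, adjusted p = 0.707), its value was 0.08 with GC correction, and without A549 DMSO replicate 1 its value turned to 0.36 (adjusted p = 0.00375). GAPDH missed at 0.20 (adjusted p = 0.0105) and passed without A549 DMSO replicate 3 or 4, H1792 DMSO replicate 1 or H1792 AMG900 replicate 3 (0.00354 to 0.00986). PGAM1 passed without A549 DMSO replicate 1 (-0.23, 0.00137) and PDK2 without H1792 DMSO replicate 1 (0.38, 0.00733).

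Genes of the same pathways outside the 43 were called in both directions. Of all genes tested, 17.2% were called up and 17.8% down in A549, and 16.2% and 18.8% in H1792. The interaction test called 9.17% of all genes lower in H1792. Of 38 other HIF targets, 12 were up and 7 down in A549 (median 0.30) and 6 up and 15 down in H1792 (median -0.08), and the interaction test called 13 lower in H1792. In A549 EFNA1 (log2 1.32, SE 0.08) and PLIN2 (0.91, SE 0.07) rose and TFRC (-1.23, SE 0.10) and ZNF395 (-0.99, SE 0.12) fell, while in H1792 ANGPTL4 (1.12, SE 0.07) and STC1 (1.02, SE 0.10) rose and GBE1 (-1.56, SE 0.10) and TFRC (-1.37, SE 0.09) fell, each with an adjusted p at or below 2.86e-05. TFRC encodes the transferrin receptor, PLIN2 a lipid droplet protein and GBE1 the glycogen branching enzyme. Of the 15 HIF pathway regulators, 14 were tested in A549 with 2 up and 2 down, and 15 in H1792 with 1 up and 1 down. TCEB2, the elongin B gene under its older symbol, rose (0.60 and 0.36) and SIAH2, a ubiquitin ligase for prolyl hydroxylases, fell (-0.61 and -0.60) in both, with P4HTM up (0.66) and CUL2 down (-0.80) in A549.

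Of 24 other glycolysis genes, 15 were tested in A549 with 5 up and 2 down (median 0.25) and 17 in H1792 with 4 up and 4 down (median -0.20). The shares of all genes given above apply to this list and the next ones too. GPD2, the mitochondrial glycerol phosphate dehydrogenase, fell in both (log2 -1.07 and -0.93). PGM2 fell (-0.95) and TIGAR (0.87) and G6PC3 (0.68) rose in A549, and LDHD (1.07) and ENO3 (0.90) rose and PGAM4, a near copy of PGAM1, fell (-1.86) in H1792. Of 12 genes for pyruvate entry and the pyruvate dehydrogenase complex, 1 was up and 2 down in A549 and 4 were down in H1792, with PCK2 up (0.29) and DLAT (-0.92) and PDPR (-0.76) down in A549 and PDP1 (-1.34) and DLD (-1.11) down in H1792. Of 9 pentose phosphate genes, 4 were up and 2 down in A549 and 2 up and 2 down in H1792. There H6PD rose (0.74 and 0.47) and RPIA (-0.67 and -0.66) and RPE (-0.53 and -0.65) fell in both lines, with PGLS (0.65) up in A549 and TKT (0.20) up in H1792.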

How the data were processed

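RNA sequencing of A549 and H1792 cells was analysed from 2 tables of gene counts, 1 per line. The authors deposited whole-number raw counts per gene symbol, made with STAR and HTSeq on hg19 per the submitters' processing notes, with versions, annotation and strand setting not given in the sources used here. In the H1792 table, 28 entries carrying date names in place of gene symbols (0.101% to 0.117% of counts) were left out.

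Each line was tested with the edgeR 4.0.16 quasi-likelihood test in R 4.3.3 (filterByExpr, TMM scaling, FDR 0.01 after Benjamini-Hochberg adjustment over all genes tested). The interaction and the DMSO comparison between lines came from 1 fit over all 14 libraries. Standard errors (SE) were computed back from the log2 value and the F statistic of the test. Intervals were taken from these by a normal approximation, so they are somewhat narrower than the test itself implies. CPM values are TMM-scaled within a line unless stated otherwise. DESeq2 1.42.0, other scalings and filters, GC correction (natural spline, 5 degrees of freedom), a replicate block and leaving out each library were alternatives, with union exon length for shares added after the data were seen. Isozyme shares were computed per kb of a representative transcript and compared by exact permutation tests (SciPy 1.17.1). Coordinates are GRCh37 (gene positions) and GRCh38.p14 (promoters, RefSeq). Every one of the 43 members is named, and genes of other lists are named for the 2 largest called changes in each direction at a mean of at least 100 counts. Members and lists were chosen with earlier results of these data known.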

Additional observations from a re-analysis of the deposited data

Results flagged for a closer look

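Of 86 values tested for a single library far from the rest of its A549 group, 8 stood out, where chance gives about 1 in 20. A549 DMSO replicate 1 held 4 of them, at 96.1 CPM for HIF1A and 1367 for TPI1 on the high side and at 10.8 for PFKFB4 and 22.3 for PDK2 on the low side. The others were ALDOA at 2432 CPM in AMG900 replicate 4, CA9 at 5.62 in AMG900 replicate 2, ANKRD37 at 1.89 in AMG900 replicate 1 and NDRG1 at 47.2 in DMSO replicate 4. Groups of H1792 have 3 libraries and were not tested in this way.

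The AMG900 effect differed between the lines, by the interaction test, for 15 members. On the log2 scale (H1792 minus A549) the differences were -1.59 for CA9, -1.21 for EPAS1, -1.11 for P4HA1, -1.04 for EGLN3, -0.83 for P4HA2, -0.70 for PFKFB4, -0.70 for BNIP3L, -0.67 for SLC16A3, -0.51 for PFKL, -0.49 for HK1, -0.49 for SLC16A1, -0.41 for NDRG1 and -0.40 for DDIT4. They were 0.64 for LDHA and 0.46 for PGAM1.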

How the results depend on the processing

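In A549, 10 members were up, and 6 were with total counts, 6 with the replicate block, 4 with GC correction and 3 with both block and GC correction. Over all genes 2265 were up, and 1870, 1923, 1809 and 1549 in these settings. Leaving out 1 library gave 6 to 12 members up (6 without DMSO replicate 2 or 4 or AMG900 replicate 4). The all-gene counts without 1 library were 1845 to 2876 up. In H1792, 3 members were up, and 1 was with total counts, with GC correction and with block and GC correction, where 1859, 2129 and 1772 of all genes were, against 2439. Leaving out 1 library gave 1 to 3 up (1 without DMSO replicate 3 or AMG900 replicate 1 or 2, and 2 without AMG900 replicate 3) and 12 to 23 down (12 without AMG900 replicate 1). The all-gene counts were then 1382 to 3047 up and 1853 to 3656 down, against 2439 and 2827 in the main test. Both were lowest without AMG900 replicate 1. For the interaction, 2 were higher, and 5 were at FDR 0.05, 4 with DESeq2, with its size factors, with total counts and with GC correction, and 1 with the block. Those lower numbered 13, or 8 with size factors and 7 with the block. Leaving out 1 library gave 0 to 4 higher (4 without A549 DMSO replicate 1, and 0 without H1792 AMG900 replicate 3, where 26 members had an unadjusted p under 0.05 in either direction by edgeR, DESeq2 not being run without single libraries) and 8 to 15 lower (8 without H1792 AMG900 replicate 2). The edgeR count of 1 or 2 higher held without each of the other libraries. For the interaction the all-gene counts without 1 library were 602 to 1142 higher and 965 to 1918 lower, against 793 and 1355. They were 642 higher without H1792 AMG900 replicate 3 and 983 lower without H1792 AMG900 replicate 2.

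The median log2 value went to -0.226 in A549 and -0.304 in H1792 with total counts, and to -0.298 in H1792 with GC correction, with or without the block. The interaction median was -0.243 with DESeq2, -0.242 with size factors and -0.231 with total counts, while the baseline median was 0.345 with total counts, 0.505 without a filter, 0.311 with at least 10 counts in every library and 0.479 with block and GC correction. Leaving out 1 library gave -0.168 to -0.121 in A549, -0.347 to -0.277 for the interaction and 0.383 to 0.486 for the baseline. From counts without length and with union exon length (the latter added after the data were seen), the share differences in points were -5.53 and -6.15 for HK2 in H1792, 1.17 and 1.40 for ENO2 in A549, 0.328 and 0.397 for ENO2 in H1792, 18.5 and 22.5 for SLC16A3 in A549, and 25.4 and 26.4 for SLC16A3 in H1792. The summed enzyme ratio was 0.851 in A549 with total counts and 1.02 in H1792 with size factors.

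Signs turned with GC correction, and with block and GC correction, for PFKL (-0.128, -0.129), GAPDH (-0.231, -0.229) and DDIT4 (-0.260, -0.259) in A549 and for PFKP (-0.197, -0.197), GAPDH (-0.0423, -0.0424), SLC16A3 (-0.245, -0.242), PDK2 (-0.0108, -0.0061) and BNIP3L (0.0318, 0.0322) in H1792. HIF1A in the baseline, -0.110, turned to 0.358 without A549 DMSO replicate 1 (-0.267 without A549 DMSO replicate 2, the lowest) and to 0.0827 with GC correction. The cause was not tested.

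Replicate numbers did not pair the samples: deviations of same-numbered libraries correlated at -0.0391 to 0.0126 in A549 and -0.0604 to 0.0425 in H1792. With the replicate block, 6 members were up and 13 down in A549, 3 and 19 in H1792, 1 higher and 7 lower for the interaction, and 22 and 10 for the baseline. Over all genes the block gave 1923 up and 1984 down in A549 and 2170 and 2618 in H1792. It gave 604 higher and 984 lower for the interaction and 4846 and 4484 for the baseline. For the interaction, the block ended the calls of DDIT4, EGLN3, NDRG1, PFKFB4, PFKL, PGAM1 and SLC16A1 (adjusted p between 0.0126 and 0.0232). Counting error limits HK2, PDK1 and ANKRD37 in A549, which had 5 to 62 counts per library.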
